A study of Mus musculus with 6 samples.

Results

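Translation initiation and elongation factors were followed by RNA sequencing in CD4+ T lymphocytes (helper T cells) of the mouse around the transfer of synthetic miR-155, a microRNA of activated lymphocytes. Members were the rows of the count table whose gene symbol begins with Eif1 to Eif6 or with Eef1 or Eef2, without the Eif2ak kinases, and 55 of 13177 accessions met this rule. The 6 libraries formed 2 groups of 3, namely controls labelled as 0 h and cells taken 8 h after transfection. Both groups carry the same treatment label, which names the oligonucleotide, and no 8 h library without it was analysed here, so time and oligonucleotide cannot be told apart. Strain, age and sex of the mice are not stated in the labels used here, nor whether replicates came from separate animals or cultures, so p-values measure only the spread between these libraries, which may be technical. The 8 h libraries are described as CD5+ T cells in one label and as CD4+ T cells in another.

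Translation begins when initiation factors bring the initiator tRNA and an mRNA to the small ribosomal subunit. eIF2 carries the initiator tRNA and is recharged with GTP by eIF2B, eIF4 proteins bind the mRNA cap and unwind the leader, and eIF3 is the scaffold that holds the complex together. eEF1A then delivers aminoacyl-tRNAs and eEF2 moves the ribosome along the message. Resting T cells keep translation low, and activation raises it within hours.

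Library totals ran from 4564010 to 13675127 counts, and the 100 most abundant accessions took 57.7% to 68.6% of each. Markers of T cells summed to between 3359 and 19181 CPM (counts per 1000000 of a library size scaled by edgeR's TMM method) in controls and to between 5116 and 12361 CPM at 8 h. Cd4 itself had 5 to 10 counts in every library, and Cd247 and Il7r had at most 16. Actb and Gapdh reached at most 11 counts, so it is uncertain whether each row holds the ordinary read count of its gene, and every level below carries that limit. All 6 listed markers of cytotoxic and natural killer cells were matched and summed to 1306 to 4809 CPM in controls against 231 to 421 CPM at 8 h, without overlap. The CD8 T cell markers (2 of 2 matched) lay at 7.56 to 38.4 CPM and 11.4 to 60.7 CPM. Markers of red cells and platelets (5 of 6 matched, Alas2 and Pf4 at 0 in at least 1 library) summed to 21.1 to 131 CPM in controls and to 1.30 to 11 CPM at 8 h, also without overlap. Summed B cell markers (6 of 6 matched, Pax5 at 0 in at least 1 library) lay at 26.7 to 86.9 CPM and 38.8 to 147 CPM. Myeloid markers (7 of 7 matched, with Csf1r, S100a8 and S100a9 at 0 in some libraries) lay at 15.6 to 48.9 CPM and 6.96 to 16.6 CPM. The part of these cells in the results below was not tested.

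The factors lay at both ends of the table. Of the 55 members, 24 (43.6%) had over 1000 counts in at least 1 library, against 19.0% of all accessions, while 17 (30.9%) had at most 15 counts in every library, against 16.4% of all accessions. Members of one molecular machine were found at both ends. The filter on low counts kept 35 members for testing and left out 20. Together the 55 took 1.53%, 5.19% and 3.45% of all counts in controls 1 to 3 and 3.57%, 1.12% and 1.61% at 8 h. The groups overlapped, at 3.39 ± 1.83% in controls against 2.10 ± 1.30% at 8 h (n = 3 each, SD). In bulk RNA, fewer cells of a type and less RNA per cell cannot be told apart. A few genes set these shares: Eef1g alone held 66.0% of the members' counts in control 2, Eef2 35.1% in control 3 and Eef1a1 38.0% in control 1. By role, the eEF1 genes took 0.621%, 4.80% and 1.22% of control counts and 1.23%, 0.0263% and 0.380% at 8 h, with overlap. Of the 0.380% in 8 h replicate 3, Eef1e1, an auxiliary protein of the tRNA synthetase complex, held 0.359%. The eIF2 genes took 0.0161%, 0.0353% and 0.0161% in controls and 0.941%, 0.158% and 0.254% at 8 h, without overlap, and Eif2s1 made up all of the 0.941% at this precision. The summed genes of eIF1 and eIF1A did not overlap either, at 0.00376%, 0.0264% and 0.0035% in controls against 0.0687%, 0.0598% and 0.157% at 8 h. Eif1b held most of these counts in every library. By single gene, the groups overlapped for Eif1 and Eif1a and did not for Eif1b and for Eif1ax, which had 1 to 11 counts. The remaining roles overlapped.

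**Figure D1:**
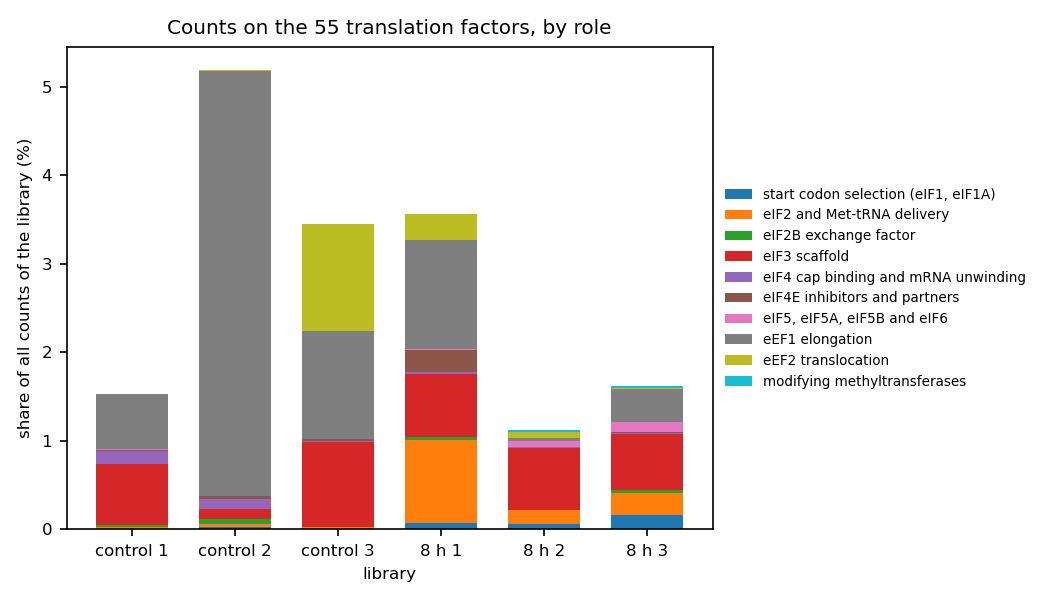
Share of all counts of a library (vertical axis, %) on the 55 translation factors, for the 6 libraries (horizontal axis), with colours for roles. Elongation factors fill most of control 2, eIF3 subunits are visible in every bar, and the eIF2 segment is large at 8 h only in replicate 1.

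Across the 8308 accessions tested, edgeR's quasi-likelihood test called 0% at an adjusted p under 0.05, and 0 of the 35 tested factors passed, with adjusted p values from 0.538 to 0.994. By fitted log2 fold change, 18 factors had higher and 17 lower values at 8 h, with a median of 0.12 beside 0.06 for all tested accessions. At an unadjusted p under 0.05, 4 of 35 (11.4%) had higher values, namely Eif2s1, Eif3l, Eef1e1 and Eef1akmt4, against 4.51% of all accessions tested, and 0 had lower values, against 4.02%. All 8 h libraries lay above all controls for 4 factors (11.4%, against 5.72% of all tested) and below them for 1, Eef1a1 (2.86%, against 5.08%). DESeq2's Wald test, an alternative, called 4 of 35 (11.4%, against 4.80% of all tested), namely Eef1a1, Eif2s1, Eif3l and Eef1akmt4, and gave 10 of the 35 no adjusted p. limma-voom and the newer form of edgeR's fit called 0, with 2 and 5 factors at an unadjusted p under 0.05, where DESeq2 had 8. Over all 8308 tested accessions, limma-voom had 403 at this level, the newer fit 984 and DESeq2 1371. No factor is therefore said to rise or fall here, and the values below are descriptions with the error that belongs to them. Members beyond the rule for named genes were picked after their values were seen.

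**Figure D2:**
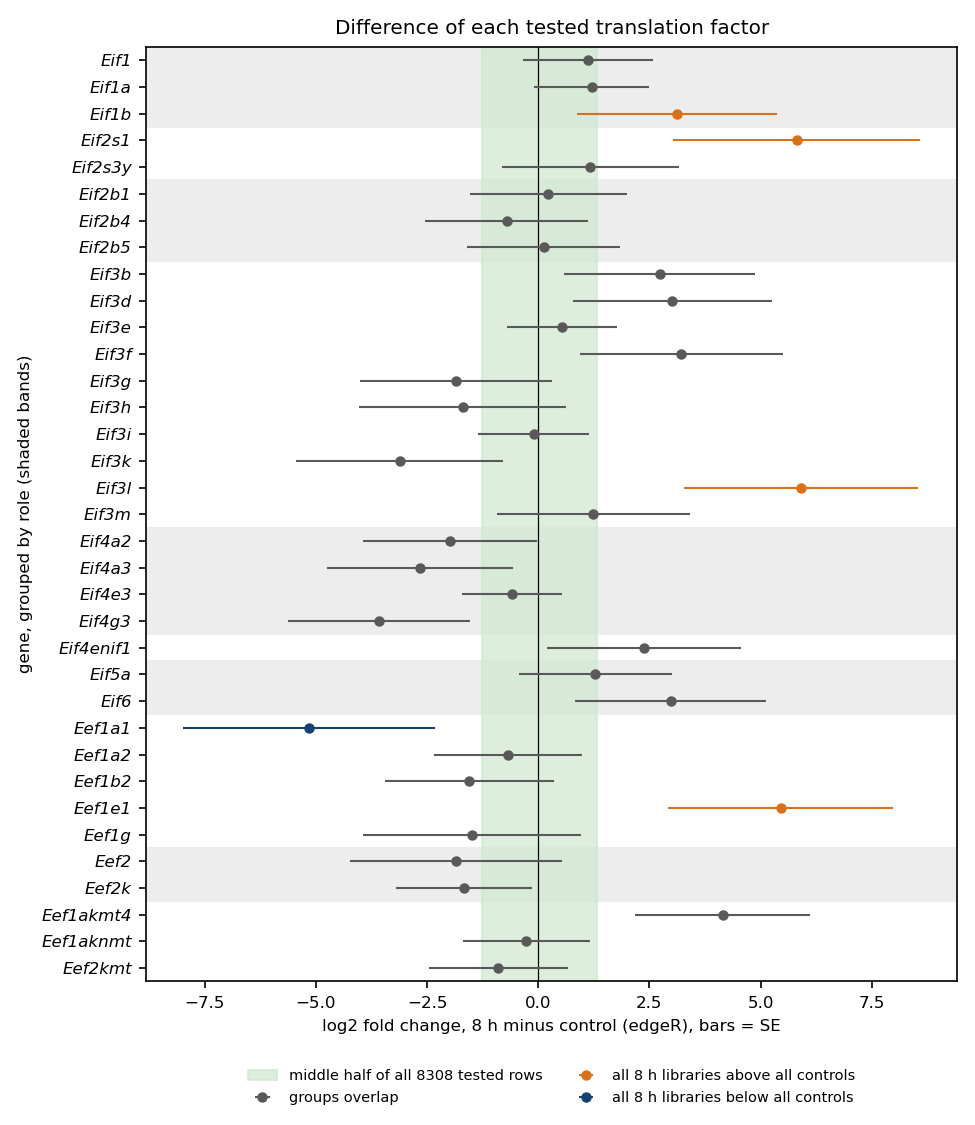
Fitted log2 fold change of the 35 tested factors, 8 h minus control (horizontal axis), with bars for the SE and the genes on the vertical axis in order of role. The shaded strip is the interquartile range of all 8308 tested accessions, and the points run from Eef1a1 at -5.15 to Eif3l at 5.91.

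Over the 6 libraries, Eef1g at 3944 and Eef1a1 at 2971 CPM per kb of transcript had the highest means of the family. Control 2 held 70.5% of the summed CPM of Eef1g. An eIF3 subunit stood above every eEF1 gene in control 1, in 8 h replicates 2 and 3 and, narrowly, in control 3. In control 1, Eif3k lay at 7430 against 3743 CPM per kb for Eef1a1, and in 8 h replicate 2, Eif3m at 1305 against 60.1 for Eef1g. Eef1a1, which encodes the tRNA-delivering GTPase eEF1A1 (chromosome 9, 78478453 to 78481724, GRCm38), had 37566, 62414 and 131367 counts in controls, against 6221, 796 and 577 at 8 h. These are 6715, 12409 and 11982 CPM against 730, 59.9 and 83.6 CPM. The controls lay within a factor of 1.85 of each other, and the highest 8 h library was far below the lowest control. The difference on the log2 scale was -5.15 ± 2.83 (SE), with adjusted p values of 0.618 by edgeR and 0.0121 by DESeq2, and of 0.0121 to 0.998 over the alternatives. Leaving out each library in turn kept it between -7.17 and -4.67.

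The other abundant elongation genes overlapped between the groups. Eef1g, a subunit of the exchange factor that recharges eEF1A (chromosome 19, 8967041 to 8978180), had 94, 156454 and 15488 counts in controls, against 97137, 1487 and 417 at 8 h. Control 2 thus held 1851 times the CPM of control 1, and in control 2 the gene was the accession of rank 3 in the library. Its log2 fold change of -1.49 ± 2.46 (SE, edgeR adjusted p = 0.896) became 2.38 without control replicate 2 and -6.95 without 8 h replicate 1. Eef2, the translocase (chromosome 10, 81176631 to 81182509), had 267, 513 and 148926 counts in controls, against 25412, 10312 and 417 at 8 h. A single control stood above every other library, and the log2 fold change of -1.85 ± 2.38 (SE, edgeR adjusted p = 0.855) turned to 4.11 without control replicate 3. Eef2k, the kinase that inhibits eEF2, had 21, 11 and 144 counts against 6, 53 and 9, with overlapping groups.

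Eef1b2, the catalytic exchange subunit for eEF1A, lay at 209 ± 185 CPM in controls against 71.4 ± 62.1 CPM at 8 h (n = 3 each, SD), with overlapping groups. Eef1d, the other exchange subunit, had 3 to 21 counts and was not tested, and it works in the same complex as Eef1g. Eef1e1, an auxiliary protein of the tRNA synthetase complex (chromosome 13, 38645691 to 38659028), had 190, 34 and 397 counts in controls, against 704, 754 and 22407 at 8 h. Every 8 h library exceeded every control in CPM, but 93.8% of its summed CPM came from 8 h replicate 3. The log2 fold change of 5.46 ± 2.53 (SE, edgeR adjusted p = 0.544) was 1.45 without that library. Eef1a2, the form of eEF1A known from muscle and neurons, stayed at 1.64 to 25.7 CPM, and no difference from Eef1a1 in response was tested.

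Among enzymes that modify these factors, Eef1akmt4, a lysine methyltransferase for eEF1A (chromosome 16, 20611601 to 20618869), had 6, 32 and 89 counts in controls, against 27, 1592 and 1071 at 8 h. The groups overlapped, since 8 h replicate 1 lay at 3.17 CPM, below the 6.36 and 8.12 CPM of controls 2 and 3. Its log2 fold change was 4.15 ± 1.97 (SE, edgeR adjusted p = 0.544) and ran from 3.61 to 4.72 without each library. RefSeq also lists a readthrough gene, Eef1akmt4-ece2, over the same locus, and reads of the pair cannot be told apart in this table. Eef1aknmt and Eef2kmt, methyltransferases of eEF1A and eEF2, lay between 0.870 and 12.3 CPM, and Eef1akmt1 had at most 3 counts.

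**Figure D3:**
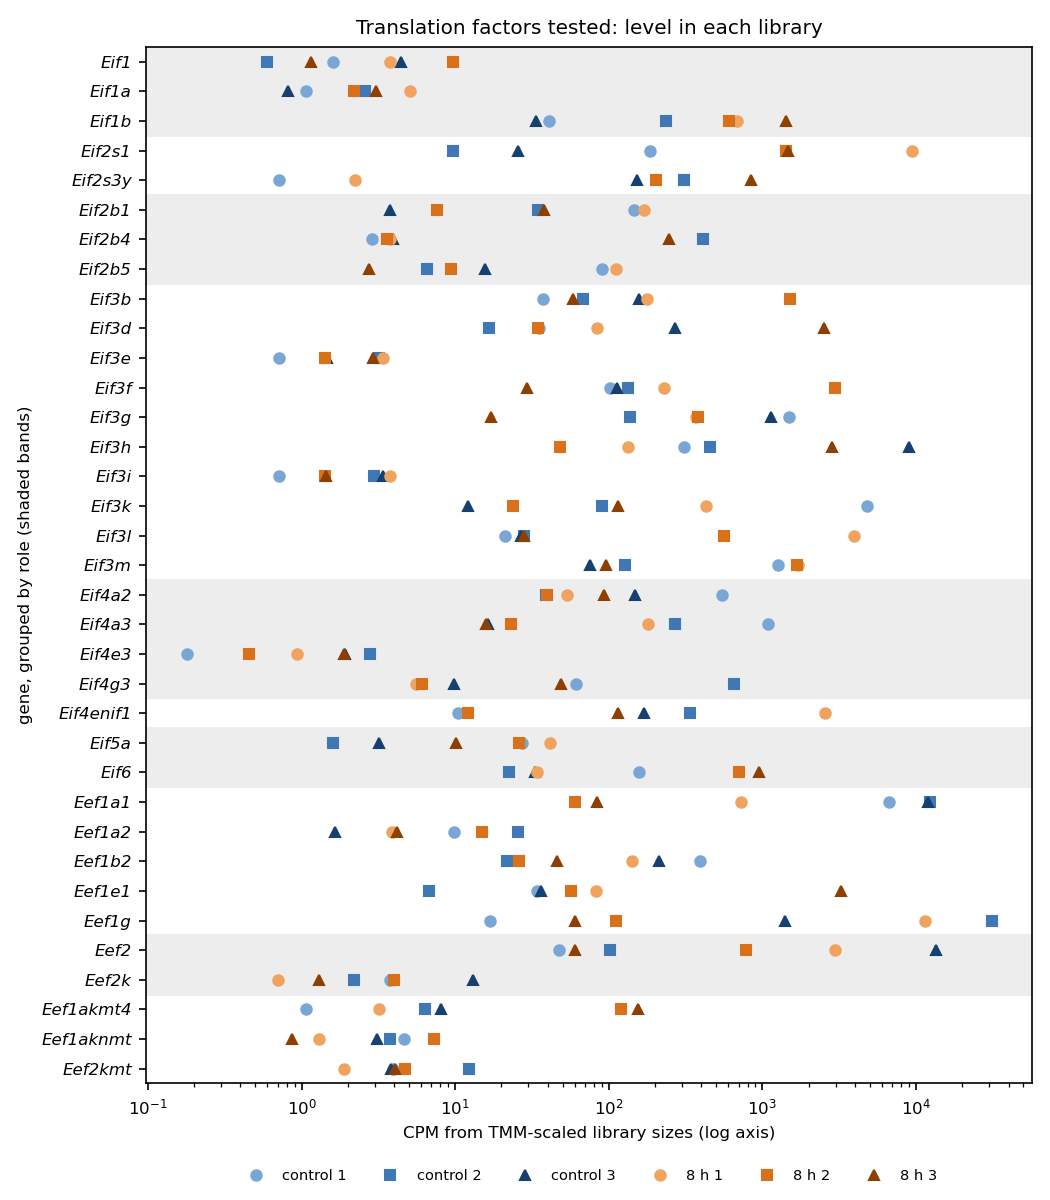
Level of each of the 35 tested factors (vertical axis, grouped by role) in each of the 6 libraries, as CPM on a log axis. Blue points are controls and orange points 8 h libraries, and the colours separate fully for Eef1a1, Eif2s1, Eif1b, Eef1e1 and, narrowly, Eif3l.

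eIF2 showed its alpha subunit at high levels at 8 h, while Eif2s2 had at most 6 counts and Eif2s3x at most 22 in any library. Eif2s1, the subunit whose phosphorylation shuts down initiation under stress (chromosome 12, 78862072 to 78887010), had 1030, 49 and 282 counts in controls, against 80325, 18945 and 10073 at 8 h. In CPM these were 184, 9.74 and 25.7 against 9429, 1427 and 1460, so the lowest 8 h library stood well above the highest control. The difference on the log2 scale was 5.81 ± 2.78 (SE), with adjusted p values of 0.544 by edgeR and 0.00845 by DESeq2, and of 0.00845 to 0.998 over the alternatives. Without each library it ran from 4.33 to 7.82.

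Eif2s2, the beta subunit, had 0, 0 and 6 counts in controls, against 4, 3 and 3 at 8 h. Eif2d, a separate factor that can also deliver tRNA, had at most 5 counts. Eif2s3x, the X-linked gamma subunit that binds the initiator tRNA, had 2 to 22 counts. Per kb of transcript, Eif2s1 at 8 h averaged 1206 CPM per kb and Eif2s2 0.148 CPM per kb, and the protein complex holds 1 copy of each. Eif2s3y, the Y-linked gamma subunit, had 4, 1559 and 1672 counts in controls, against 19, 2674 and 5804 at 8 h, low in replicate 1 of both groups and high in the other 4 libraries. Its groups overlapped, with a log2 fold change of 1.17 ± 1.99 (SE, edgeR adjusted p = 0.898). Per kb of transcript, Eif2s3y stood above Eif2s1 in controls 2 and 3 and in 8 h replicate 3. There it lay at 169, 83.1 and 458 CPM per kb, against 2.86, 7.55 and 429 for Eif2s1. In the remaining libraries Eif2s1 stood higher.

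The exchange factor eIF2B, which reloads eIF2 with GTP, overlapped between the groups in every tested subunit. Eif2b5, its catalytic subunit (chromosome 16, 20498795 to 20509325), had 508, 33 and 172 counts in controls, against 946, 124 and 19 at 8 h. The log2 fold change was 0.12 ± 1.72 (SE, edgeR adjusted p = 0.994), and without single libraries it ran from -2.60 to 1.84. Eif2b4 stood out in control 2 and 8 h replicate 3, with 2061 and 1702 counts against 16 to 48 elsewhere. Eif2b1 ranged from 3.74 to 170 CPM, and Eif2b2 had at most 10 counts.

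Start codon selection rests on eIF1 and eIF1A. Eif1b, an eIF1 paralogue (chromosome 9, 120492606 to 120495327), had 227, 1187 and 368 counts in controls, against 5785, 8005 and 9755 at 8 h. In CPM the controls lay at 40.6, 236 and 33.6 and the 8 h libraries at 679, 603 and 1414, without overlap. The 8 h values lay within a factor of 2.35 of each other. The log2 fold change was 3.12 ± 2.24 (SE, edgeR adjusted p = 0.703, 0.137 to 0.998 over the alternatives) and ran from 2.67 to 4.60 without each library. Its paralogue Eif1 had 3 to 129 counts, with 2.23 ± 2.01 CPM in controls against 4.88 ± 4.39 CPM at 8 h (n = 3 each, SD). Eif1a lay at 0.821 to 5.05 CPM, and Eif1ax had 1, 2 and 5 counts against 7, 11 and 5.

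eIF3 is the largest initiation factor, and 13 of its subunit genes had a row. Compared per kb of transcript, their mean levels over the 6 libraries spanned from 0.0726 CPM per kb for Eif3a, the core subunit, to 1645 CPM per kb for Eif3h. Eif3h, Eif3k, Eif3m and Eif3g led the complex on this scale, while Eif3a, Eif3c and Eif3j2 never exceeded 11 counts and Eif3e and Eif3i never exceeded 37. The leading subunit changed from library to library, being Eif3k in control 1, Eif3h in controls 2 and 3 and 8 h replicate 3, Eif3l in 8 h replicate 1 and Eif3m in 8 h replicate 2. Within a library, the top subunit had 3043 to 130169 times the CPM per kb of the lowest, Eif3a.

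**Figure D4:**
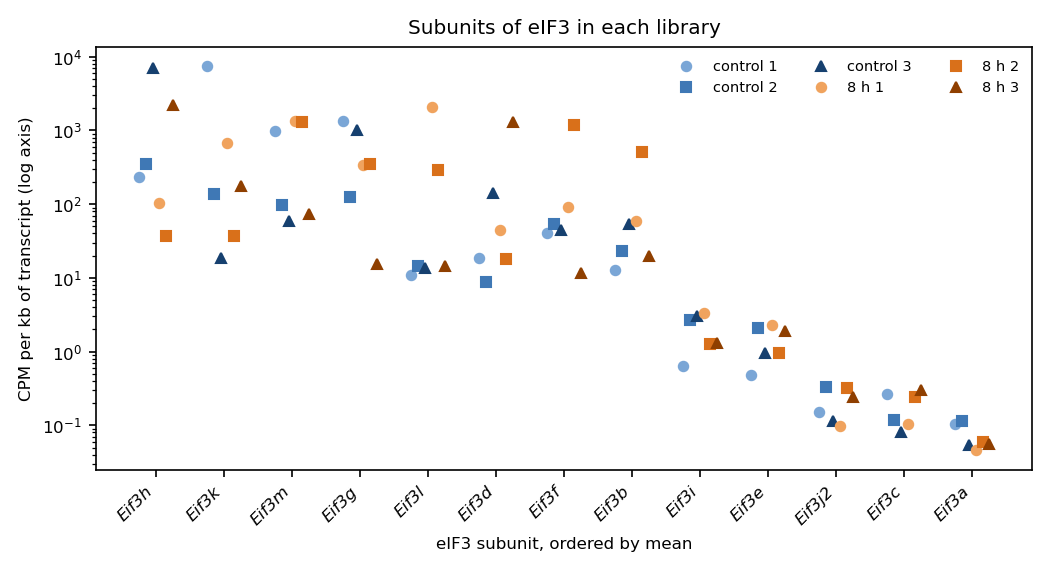
Level of each eIF3 subunit per kb of transcript (vertical log axis, CPM per kb) in the 6 libraries, with subunits ordered by their mean. Eif3h to Eif3b form an upper group and Eif3i to Eif3a a lower one, and in the upper group the 8 h libraries of each subunit are spread widely, while the controls of Eif3f and Eif3l lie close together.

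Of the 10 eIF3 subunits tested, 6 had higher and 4 lower fitted values at 8 h. Eif3l (chromosome 15, 79075223 to 79094400) had 118, 141 and 294 counts in controls, against 33852, 7425 and 194 at 8 h. The controls agreed closely, at 21.1, 28.0 and 26.8 CPM, whereas the 8 h libraries were spread, at 3974 CPM in replicate 1, 559 CPM in replicate 2 and 28.1 CPM in replicate 3, the last of which lay just above the highest control. The log2 fold change was 5.91 ± 2.63 (SE, edgeR adjusted p = 0.538, 0.00714 to 0.998 over the alternatives) and was 3.56 without 8 h replicate 1.

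Eif3f had controls at 102, 134 and 113 CPM and 8 h libraries at 229, 2985 and 29.4 CPM, so the controls lay between the 8 h replicates. Eif3h had 1719, 2302 and 98690 counts in controls, against 1144, 640 and 19535 at 8 h, high in replicate 3 of both groups. Its log2 fold change of -1.70 ± 2.32 (SE, edgeR adjusted p = 0.867) turned to 1.41 without control replicate 3. Eif3k had 26894, 453 and 133 counts in controls, against 3666, 317 and 789 at 8 h, and its log2 fold change of -3.11 ± 2.33 (SE, edgeR adjusted p = 0.718) turned to 1.88 without control replicate 1.

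Eif3m had 7110, 638 and 821 counts against 14610, 22235 and 657, with a log2 fold change of 1.24 ± 2.17 (SE, edgeR adjusted p = 0.898) that was 3.53 without control replicate 1 and 0.75 without control replicate 3. Eif3g, a subunit with an RNA-binding domain, lay at 922 ± 704 CPM in controls against 257 ± 208 CPM at 8 h (n = 3 each, SD), with overlapping groups. Eif3d was high in replicate 3 of both groups, with 197, 84 and 2962 counts against 715, 460 and 17266, and Eif3b peaked in 8 h replicate 2, with 209, 340 and 1736 counts against 1500, 20035 and 405. Eif3e had 4 to 29 counts and a log2 fold change of 0.53 ± 1.24 (SE). As a whole, eIF3 took 0.593 ± 0.432% of control counts against 0.680 ± 0.0452% at 8 h (n = 3 each, SD). Single subunits thus varied far more than their sum did at 8 h, where the shares were 0.711%, 0.701% and 0.628%. In controls the sum was itself spread, at 0.7%, 0.117% and 0.962%.

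The cap-binding machinery was split between near-empty and well-counted rows. Eif4e, the cap-binding protein, had 0 to 2 counts in every library, Eif4a1, the main helicase, 2 to 5, and Eif4b and Eif4h, its cofactors, at most 13. Eif4g1, the scaffold that joins them, was not matched. Eif4ebp1, the repressor that mTORC1 removes from eIF4E, had at most 10 counts and Eif4ebp2 at most 3. The filter on low counts left the matched genes among these out of testing, and their low counts do not show that the RNA was absent. Why these rows were so low was not tested.

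Of the 4 tested members of the class of cap binding and mRNA unwinding, 4 had lower fitted values at 8 h and 0 passed the test. Over all 8308 tested accessions, 4045 had lower fitted values. Eif4a2, a close paralogue of Eif4a1, had 3069, 197 and 1622 counts in controls, against 457, 522 and 644 at 8 h. Eif4a3, the helicase of the exon junction complex, had 6097, 1348 and 178 against 1522, 305 and 109. Eif4g3, a paralogue of the scaffold, had 343, 3284 and 107 against 47, 81 and 338. For these 3 genes the groups overlapped, with edgeR adjusted p values of 0.798, 0.743 and 0.621 and log2 fold changes of -1.98 ± 1.95, -2.66 ± 2.10 and -3.58 ± 2.05 (SE). Without control replicate 1 the values were -0.61 for Eif4a2 and -0.97 for Eif4a3, and without control replicate 2 that of Eif4g3 was -0.80. Eif4e3, a cap-binding paralogue, had 1, 14 and 21 counts against 8, 6 and 13, and Eif4e2, another, had at most 4. Eif4enif1, which carries eIF4E into the nucleus, had 58, 1688 and 1861 counts in controls, against 21667, 161 and 794 at 8 h, so that a single library stood apart.

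Factors of subunit joining and of later steps gave 2 testable genes. Eif6, which keeps the large subunit from joining too early (chromosome 2, 155819837 to 155826925), had 882, 113 and 360 counts in controls, against 292, 9289 and 6537 at 8 h. Replicates 2 and 3 at 8 h stood at 700 and 947 CPM, but replicate 1 at 34.3 CPM lay within the control range. The log2 fold change was 2.98 ± 2.15 (SE, edgeR adjusted p = 0.703). Eif5a, the hypusine-bearing factor that relieves stalled ribosomes, had 10.7 ± 14.3 CPM in controls against 25.9 ± 15.7 CPM at 8 h (n = 3 each, SD). Eif5, the GTPase activator of eIF2, had 2 to 4 counts and Eif5b at most 34.

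**Figure D5:**
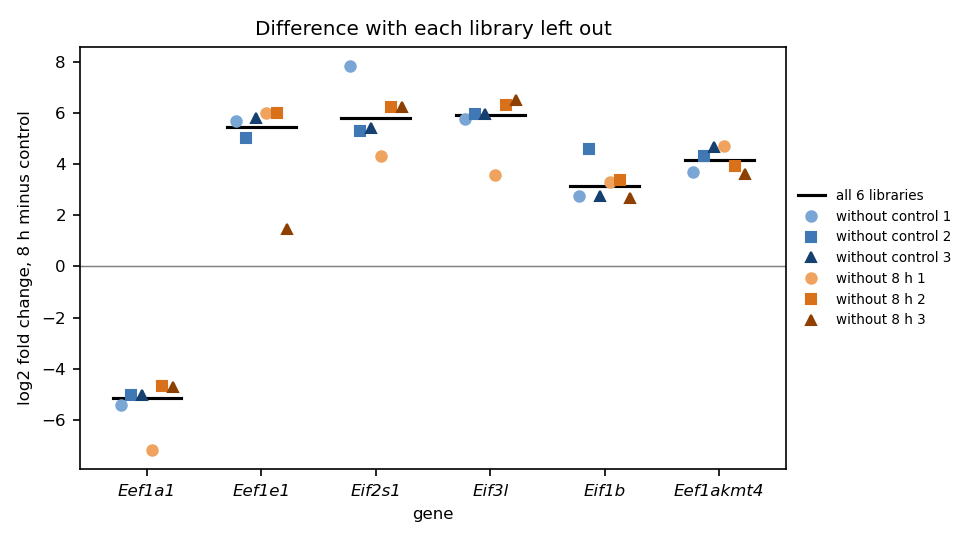
Fitted log2 fold change, 8 h minus control (vertical axis), of 6 factors with all 6 libraries (black line) and with each library left out (points). No point crosses 0, and the largest shift is that of Eef1e1, from 5.46 to 1.45 without 8 h replicate 3. The 6 were chosen from these data for non-overlapping groups or an unadjusted edgeR p under 0.05, so their held signs are no further evidence. Of the 35 tested factors, 13 turned sign without a single library.

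Since the transferred oligonucleotide was miR-155, the 3' UTRs of the factors were searched for matches to its seed. The mature guide strand is encoded at chr16:84714143-84714165 (plus strand, RefSeq, GRCm38.p6), and capitals mark the seed, bases 2 to 8.
mmu-miR-155-5p: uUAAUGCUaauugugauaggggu

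A match was AGCATTA, or GCATTAA for a seed match 1 base shorter that faces an A, in the sense strand of the longest annotated 3' UTR (GENCODE M21). Of 54 factors with a 3' UTR, 3 (5.56%) held one, against 12.9% of 12536 accessions searched, and the median 3' UTR was 890 bases long against 1119. The sites found in this search follow, with capitals for the match.
Eif1ax (chrX:159387716-159387745, plus strand): ttcttccctaaagcAGCATTAttgagtgct
Eif4g2 (chr7:111071763-111071792, minus strand): caccccttaattcaAGCATTAAtttttttt
Eif5 (chr12:111546096-111546125, plus strand): atgtaaaaaattgtGCATTAAaatcataca
The site of Eif4g2, an eIF4G-like protein of cap-independent initiation, is the longest kind, an 8mer. Eif4g2 had 1, 4 and 9 counts in controls, against 3, 4 and 3 at 8 h, and Eif5 had 3, 3 and 2 against 3, 4 and 2. With Eif1ax at 1 to 11 counts, none of the 3 passed the filter on low counts, so no factor with a site was tested. None of the factors with higher or lower fitted values above carries such a match in its longest 3' UTR, except that the 3' UTR of Eef1aknmt was not searched.

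Promoters were searched for the E-box CACGTG, the site of Myc, Max and related factors that is known from many genes of protein synthesis. The windows ran from 250 bases before to 50 after the annotated start (RefSeq, GRCm38.p6), and the motif reads the same on both strands. It was present for 12 of 43 factors with a window (27.9%), against 10.8% of genes with a row in the table and 8.09% of all 27025 genes. By window, 24.6% of those of the factors held it, against 9.16% of the 12881 windows of genes with a row and 7.15% of all 32851. A gene with several annotated starts has several windows. The runs below show the motif, in capitals, for 4 factors described above, and each ends before the start of the gene as annotated here.
Eef2 (chr10:81176561-81176620, plus strand): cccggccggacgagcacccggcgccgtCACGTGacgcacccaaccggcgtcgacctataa
Eif3f (chr7:108934320-108934379, plus strand): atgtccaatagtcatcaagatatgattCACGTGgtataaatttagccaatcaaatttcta
Eef1akmt4 (chr16:20611482-20611541, plus strand): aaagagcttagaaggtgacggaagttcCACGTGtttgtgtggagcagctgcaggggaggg
Eif4a1 (chr11:69672580-69672639, minus strand): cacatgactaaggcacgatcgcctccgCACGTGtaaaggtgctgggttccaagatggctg
Of the 8 tested factors with the motif, 4 had higher and 4 lower fitted values at 8 h (median log2 fold change 0.50), and of 20 without it 11 had higher and 9 lower values (median 0.18). Those with it ranged from Eif3k at -3.11 to Eef1akmt4 at 4.15, and those without it from Eef1a1 at -5.15 to Eif3l at 5.91. Eef2 and Eif4a1 share the motif at mean levels of 947 and 0.250 CPM per kb of transcript. A match is a description of the letters and not of binding.

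Genes that control or accompany these factors were drawn from 6 lists, and 0 of their 50 tested genes passed edgeR's test. DESeq2 called 4 of the 50 (8%, against 4.80% of all tested), namely Rars, Rragc, Tufm and Lars, and gave 12 no adjusted p. Among the eIF2 kinases and the stress response downstream of them, 14 of 15 genes were matched and 9 tested, with 5 higher and 4 lower fitted values and a median log2 fold change of 0.23. Ppp1r15a, the phosphatase subunit that reactivates eIF2, had 1260, 21 and 547 counts in controls, against 21, 183 and 13 at 8 h (unadjusted p = 0.0428, edgeR adjusted p = 0.563). Nars, the asparaginyl-tRNA synthetase, had 3, 2 and 8 against 70, 65 and 11 (edgeR adjusted p = 0.544).

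In the mTORC1 list, 16 of 19 genes were matched and 12 tested, 6 higher and 6 lower, with a median of 0.21. Rragc, a GTPase that recruits mTORC1 to lysosomes, had 21, 80 and 115 counts in controls, against 2013, 499 and 3548 at 8 h. Its groups did not overlap, with a log2 fold change of 4.71 ± 2.17 (SE, edgeR adjusted p = 0.540).

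Of 20 matched genes of tRNA charging 16 were tested, 7 higher and 9 lower, with a median of -0.27. Rars, the arginyl-tRNA synthetase, had 53, 109 and 52 counts in controls, against 17278, 5782 and 1290 at 8 h, also without overlap (log2 fold change 6.21 ± 2.57 SE, edgeR adjusted p = 0.507). Of 11 matched genes of termination, recycling and rescue 6 were tested, 3 higher and 3 lower, with a median of 0.31. Gspt2, a release factor GTPase, had 0, 10 and 439 counts against 4, 9 and 9, and Nemf, of the ribosome quality control, had 3, 41 and 0 against 21, 1585 and 0 (edgeR adjusted p = 0.538 and 0.570). Control 3 held 90.0% of the summed CPM of Gspt2, and 8 h replicate 2 held 91.5% of that of Nemf.

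All 6 genes of the poly(A)-binding list were matched and 3 tested, 2 higher and 1 lower, with a median of 0.17. Paip2b, an inhibitor of the poly(A)-binding protein, had 1780, 95 and 724 counts against 43, 54 and 670 (edgeR adjusted p = 0.789), and Paip2 had 1528, 538 and 4522 against 136, 14634 and 190 (adjusted p = 0.961). Of 9 mitochondrial factors 5 were matched and tested, 4 higher and 1 lower, with a median of 0.92. Tufm, the mitochondrial counterpart of eEF1A, had 985, 974 and 503 counts in controls, against 44, 41 and 40 at 8 h. Its 8 h values lay below every control, as those of Eef1a1 did, with a log2 fold change of -4.88 ± 2.08 (SE, edgeR adjusted p = 0.511).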

How the data were processed

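A single table that the authors deposited gives whole-number counts for RefSeq accessions in 6 libraries. Per the labels' protocols, TruSeq libraries were read from one end over 50 bases. Bowtie, R 3.4.2 and GRCm38 are named, without a role, in the submitters' processing notes. Counting program, strand setting, treatment of multiple matches, annotation and row filters remain unknown here (not given in the sources used here), so counts of paralogues, pseudogene parents and overlapping genes are uncertain. Columns were matched to samples by title, and 0 columns lay outside the series. Symbols came from the RefSeq table of GRCm38.p6 (12827 accessions) or GENCODE M21 (47), leaving 303 unnamed. 12 protein-coding genes of the rule, Eif4g1 among them, were not matched.

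Groups were compared on all accessions with edgeR 4.0.16 in R 4.3.3 (TMM, filterByExpr by group, robust quasi-likelihood F test in the default form, two-sided, Benjamini-Hochberg at 0.05). SE was taken as |log2 fold change| divided by the root of F. CPM used TMM-scaled library sizes, and transcript lengths came from GENCODE M21. Alternatives were upper-quartile or RLE scaling, a replicate block, a filter at a mean of 5 CPM or none, DESeq2 1.42.0, limma-voom (limma 3.58.1), the newer edgeR fit and leaving out each replicate. The fits were also run on simulated counts with 200 changed genes as a check of the code, and nothing about their power at the spread of these libraries is drawn from it. The members, lists, fits and tests were chosen with earlier results of these data known. Named were members with an unadjusted p under 0.05, those without overlap and at least 5 CPM in the higher group, the 8 most abundant per kb, 16 fixed genes and those with a miR-155 site. From other lists the rule took genes with an unadjusted p under 0.05 or else the 2 with the lowest p. One marker gene is not reported here and is left out of its list.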

Additional observations from a re-analysis of the deposited data

How the results depend on the processing

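The number of accessions past edgeR's threshold was 0 under upper-quartile and RLE scaling, the replicate block, both filters, the newer fit, limma-voom and without each replicate (0 to 0), whereas DESeq2 called 399. Of the other translation genes it called 4, where every other setting called 0. The factors' median log2 fold change of 0.12 lay between 0.07 and 0.37 in the other fits and reached -0.33 when 8 h replicate 1 was left out and 0.68 when control replicate 2 was. The difference in their share of counts, -1.29 percentage points, was 0.04 outside the 100 most abundant accessions and -0.49 without Eef1g, and ran from -2.22 to -0.39 without each replicate. The replicate numbers are not stated to pair libraries, so they were not taken as pairs in the main fit. Same-numbered libraries had residual correlations of -0.0107, 0.0151 and -0.0039, which cannot decide whether they are paired. With the replicate block the sign turned for Eef2 (2.46), Eif4enif1 (-0.32), Eif2b5 (-0.49) and Eif2b4 (0.31), and in limma-voom for Eef2 (0.50) and Eif2b5 (-0.59). The cause was not tested. Leaving out single libraries turned the sign for 13 of the 35 factors, with ranges of -5.17 to 1.41 (Eif3h), -0.87 to 5.08 (Eif3d), -0.71 to 0.29 (Eif3i), -0.54 to 2.15 (Eif2s3y), -6.95 to 2.38 (Eef1g), -1.59 to 0.47 (Eef1a2), -1.81 to 0.21 (Eef1aknmt), -3.46 to 4.11 (Eef2), -1.43 to 3.26 (Eif4enif1), -2.60 to 1.84 (Eif2b5), -5.18 to 4.62 (Eif2b4), -4.54 to 1.88 (Eif3k) and -1.41 to 1.91 (Eif2b1). The other 22 kept theirs, and 16 of these moved by over 1.5 times. The spread between libraries limits these results: the larger of a factor's ratios of highest to lowest CPM within a group had a median of 25.7, beside 18.6 over all tested accessions, which was 53.1 beside 30.3 at a mean of at least 100 counts and 58.0 beside 60.7 at 1000.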

Other observations

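Each factor had 1 accession in the table, also where RefSeq lists several curated transcripts. The 38 factors with 1 curated transcript had a median of 189 mean counts, and the 17 with several one of 20.2. Over 12776 accessions of the table the same medians were 43.8 and 43.5. The 26 factors with a mean over 100 counts had a median transcript length of 1888 bases and the other 29 one of 2515 bases, where all accessions gave 2294 and 2706 bases. These are descriptions, and what they owe to the counting was not tested.

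Eif2s3y had over 1500 counts in 4 libraries, while other Y-linked genes of mice did not share its pattern. Ddx3y, an RNA helicase gene of the Y chromosome, had at most 4 counts in every library. Uty had 334 counts in 8 h replicate 2 and at most 7 elsewhere, and Kdm5d had 397 in control 2 and at most 47 elsewhere.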
